A study of Mus musculus with 18 samples.

Results

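The 34 Hox genes described here are all the transcript clusters (the array's unit for a gene) that name a single Hox gene of the A, B, C or D cluster. They are 34 of the 36232 named genes and of 65956 transcript clusters measured, and no Hox symbol had more than 1 cluster. The RefSeq gene table of GRCm38.p6 lists 39 such genes, and the other 5 (Hoxa7, Hoxa9, Hoxb4, Hoxd3 and Hoxd4) share 4 clusters with another symbol and were left out. RNA came from abdominal aorta of male mice, 1 array per sample, in 3 groups: 7 arrays of PPE + Lenva systemic, 6 of PPE and 5 of normal aorta. PPE is porcine pancreatic elastase, which weakens the aortic wall and induces an abdominal aortic aneurysm (AAA), and it was given at 10 weeks of age. The treated mice also received lenvatinib, an inhibitor of several receptor tyrosine kinases, at 5 mg/kg in DMSO by daily gavage from day 7 to day 24, and tissue was taken at day 28. Normal aorta came from untreated animals, and what surgery alone does cannot be told apart from what elastase does. No vehicle gavage is named for the PPE arrays, so drug, DMSO and gavage cannot be told apart either. The labels name ApoE-/- mice, whereas the methods name C57BL/6J WT mice for the PPE model. The RNA integrity numbers ran between 5.7 and 9.8 with no value per sample, and the same infrarenal segment was taken in all animals. No array therefore compares positions along the aorta.

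Hox genes encode homeodomain transcription factors that give cells their position along the head-to-tail axis of the embryo. They lie in 4 chromosomal clusters, and their order in a cluster follows the order of their expression along the body axis: paralogue groups of low number are used toward the head and those of high number toward the tail. Cells of the adult vessel wall, smooth muscle cells and fibroblasts among them, keep part of this pattern, which is why Hox expression is read as a record of where along the aorta a cell was born. Hox proteins bind DNA together with the TALE homeodomain proteins of the Pbx, Meis and Pknox families.

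In PPE aneurysms 4 of the 34 Hox genes were lower than in normal aorta and none was higher, where 2.62% of all clusters measured were lower. In lenvatinib-treated aneurysms 7 were lower than in normal aorta and none was higher, where 3.34% of all clusters were lower. With 1 array left out these counts went down to 2 and 4. The genes that fell were of the A, B and C clusters, most of them of paralogue groups 5 and 6, and the lowest was Hoxa5, at 61.4% of the normal signal in PPE aorta and 50.2% in treated aorta. No Hox gene differed between treated and untreated aneurysms after adjustment. The HoxD genes measured stayed within 0.11 of normal aorta on the log2 scale in both comparisons. Of them only Hoxd8 had a signal above the median of all clusters, so low signal limits what could be measured for the others. No Hox gene below that median passed in any comparison.

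The members that carry this result in the A cluster lie on the reverse strand of chromosome 6, with annotated spans of chr6:52201754-52204587 for Hoxa5, chr6:52205431-52208722 for Hoxa6, chr6:52162351-52165413 for Hoxa2 and chr6:52231197-52240854 for Hoxa10 (mm10, the build of the array annotation, which is GRCm38). The others that fell were Hoxb5 (chr11:96302595-96306121) and Hoxb6 (chr11:96292476-96301569) of the B cluster and Hoxc6 (chr15:102998257-103011881) of the C cluster, all on the forward strand. RefSeq upstream sequence of GRCm38.p6 was at hand for 17 of the 34 members and 4 of the 7 that fell, Hoxa2, Hoxa5, Hoxa6 and Hoxa10. The 250 bases before the start are shown for the pair with the largest falls and for Hoxa2. Capitals mark 3 motifs read on both strands: CCAAT, the box bound by NF-Y; TGATTNAT, the core to which Hox and Pbx proteins bind as a pair; and TGACAG, bound by Meis and Pknox proteins. The windows are chr6:52204588-52204837, chr6:52208673-52208922 and chr6:52164832-52165081, all on the reverse strand and printed 5′ to 3′.
Hoxa5 upstream: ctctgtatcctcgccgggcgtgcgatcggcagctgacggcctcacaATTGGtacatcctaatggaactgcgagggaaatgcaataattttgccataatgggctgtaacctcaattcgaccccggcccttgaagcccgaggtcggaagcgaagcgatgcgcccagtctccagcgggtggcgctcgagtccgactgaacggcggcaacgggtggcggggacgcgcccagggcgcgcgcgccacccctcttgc
Hoxa6 upstream: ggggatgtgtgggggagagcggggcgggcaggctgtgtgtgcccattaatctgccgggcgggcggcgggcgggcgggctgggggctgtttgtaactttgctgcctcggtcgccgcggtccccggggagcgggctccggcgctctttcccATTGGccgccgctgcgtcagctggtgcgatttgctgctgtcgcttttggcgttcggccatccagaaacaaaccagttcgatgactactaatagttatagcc
Hoxa2 upstream: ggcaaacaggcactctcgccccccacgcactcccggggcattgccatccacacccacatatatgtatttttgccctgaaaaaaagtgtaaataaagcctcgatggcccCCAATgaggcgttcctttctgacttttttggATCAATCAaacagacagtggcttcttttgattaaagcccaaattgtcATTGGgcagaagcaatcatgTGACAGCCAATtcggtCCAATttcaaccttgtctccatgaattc
Hoxa5 and Hoxa6 each held 1 CCAAT box on the reverse strand and neither of the other motifs, in GC-rich sequence (63.6% and 65.2% G or C, against a median of 52.4% over all 32851 promoters of the table). Hoxa2 held 4 CCAAT boxes, 1 TGATTNAT match on the reverse strand and 1 TGACAG match, at 46.4% G or C. Of all promoters of the same length, 33.8% held CCAAT, 2.82% TGATTNAT and 15.9% TGACAG. Of the pair of starts listed for Hoxa10, one window held 1 CCAAT box and the other held none of the motifs. A match is a description of letters and not a binding site.

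Signals are log2 values, normalized by the authors across arrays, and a difference of 1 stands for a doubling. For 13 of the 34 members the value of each array was deposited: Hoxa2, Hoxa3, Hoxa5, Hoxa6, Hoxa10, Hoxb5, Hoxb6, Hoxb9, Hoxc4, Hoxc5, Hoxc6, Hoxc9 and Hoxc10. The table that holds them was selected by a test for any difference among the 3 groups, so that a member in it had to differ. The other 21 members have group averages and SDs only. All 34 members were tested together with all other clusters by a limma moderated test, and p-values were adjusted over the 65956 clusters, with an adjusted p under 0.05 taken as passing. Detection calls were positive in all 3 groups for 31 of the 34 members, as for 80.6% of all clusters. Hoxb13 and Hoxd1 had negative calls in all 3 groups, and Hoxd13 in normal aorta alone. The signal exceeded the median of all clusters, 4.09, for 18 members. Arrays had medians between 5.45 and 5.66 over the clusters with per-array values, and no pair correlated above 0.991.

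The tissue of the groups differed in more than Hox expression. Of 10 contractile smooth muscle markers, 5 fell in PPE vs. normal aorta and 1 fell in PPE + Lenva systemic vs. normal aorta; the log2 of their summed signal over the 9 with per-array values ran between 17.03 and 18.29 in treated, 17.14 and 17.64 in PPE and 17.87 and 19.12 in normal aorta, and Acta2 was at the highest value of the scale (19.93) in all 3 averages. Of 8 monocyte and macrophage markers, 6 rose in PPE aorta and 8 in treated aorta against normal, with summed signals between 18.91 and 19.90 in treated, 18.83 and 19.73 in PPE and 14.37 and 19.01 in normal aorta. Signals were summed on the linear scale, and most of this sum is Lyz2. Its group mean was 19.04 in treated and 18.96 in PPE aorta, close to the top of the scale, against 16.93 in normal aorta. Of 7 endothelial markers, 3 fell in PPE and 4 in treated aorta, with sums over 4 of them between 10.57 and 12.69 in treated, 11.60 and 12.49 in PPE and 12.26 and 14.88 in normal aorta. These 4 (Pecam1, Cdh5, Vwf and Tek) have per-array values and so were selected for differing. The others did not all go the same way. Kdr averaged 7.75 in treated and 8.32 in PPE aorta, against 7.99 in normal aorta. Emcn averaged 10.28 and 10.62, against 10.37, and Erg 8.22 and 8.01, against 8.49. Of 7 fibroblast and adventitia markers, Ly6a rose in both aneurysm groups, with averages of 19.64 in treated and 19.65 in PPE aorta, against 19.21 in normal aorta, and Scara5 fell in treated aorta (5.84, against 6.47 in normal aorta). The sum over the 4 with per-array values is nearly all Ly6a, close to the top of the scale, and is not given. Of the others, Dpt averaged 16.34 in treated and 16.92 in PPE aorta, against 17.23 in normal aorta. Pi16 averaged 6.38 in treated and 6.54 in PPE aorta, against 7.15 in normal aorta. Lum went the other way, at 15.68 in treated and 15.65 in PPE aorta, against 15.05 in normal aorta. Col1a1 averaged 13.8, 14.04 and 13.96 in treated, PPE and normal aorta, and Dcn was at 19.93 in all 3 averages. None of these passed. None of the 7 adipocyte markers passed, but their median difference from normal aorta was -1.3 in treated and -1.0 in PPE aorta, with 7 and 6 of 7 below 0; Ucp1, of brown fat, averaged 7.62 in treated and 7.66 in PPE aorta, against 9.66 in normal aorta (adjusted p = 0.755 and 0.767). None of the markers of nerve and Schwann cells (7), mesothelium (5) and skeletal muscle (6) passed in any comparison, and of 8 lymphocyte markers 1 rose in PPE and 3 in treated aorta. The part of these shifts in the Hox and cofactor results was not tested. In whole tissue, fewer cells that express a gene and less RNA per cell cannot be told apart. Normal aorta replicate 5 had the highest macrophage sum (19.01) and the lowest smooth muscle sum (17.87) of its group. In that array 4 of the 13 Hox genes with per-array values, Hoxa5 among them, had the lowest signal of the 5 normal arrays. Another 3, Hoxb5 and Hoxc6 among them, had the highest. The cofactors Meis1 (8.13) and Meis2 (7.16) were lowest there too.

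PPE vs. normal aorta asked which Hox genes differ in the established aneurysm. Of the 34 Hox genes 4 fell and none rose, or 11.8% lower, where 3.98% of all clusters passed in either direction, 2.62% lower and 1.37% higher. The count was 2 when any 1 of normal aorta replicates 1, 3 and 5 or of PPE replicates 1, 2, 3, 4 and 6 was left out, with Hoxa5 and Hoxb5 passing in all 18 such fits. Among the 18 members above the median signal 22.2% were lower, against 4.41% of all clusters above that median. Without adjustment for the number of clusters, 9 members had p under 0.05, all lower (26.5%, against 11.4% of all clusters lower and 7.58% higher). The median difference over the 34 members was -0.07, beside -0.02 over all clusters, and 25 members lay below 0 (73.5%, against 55.7%).

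**Figure D1:**
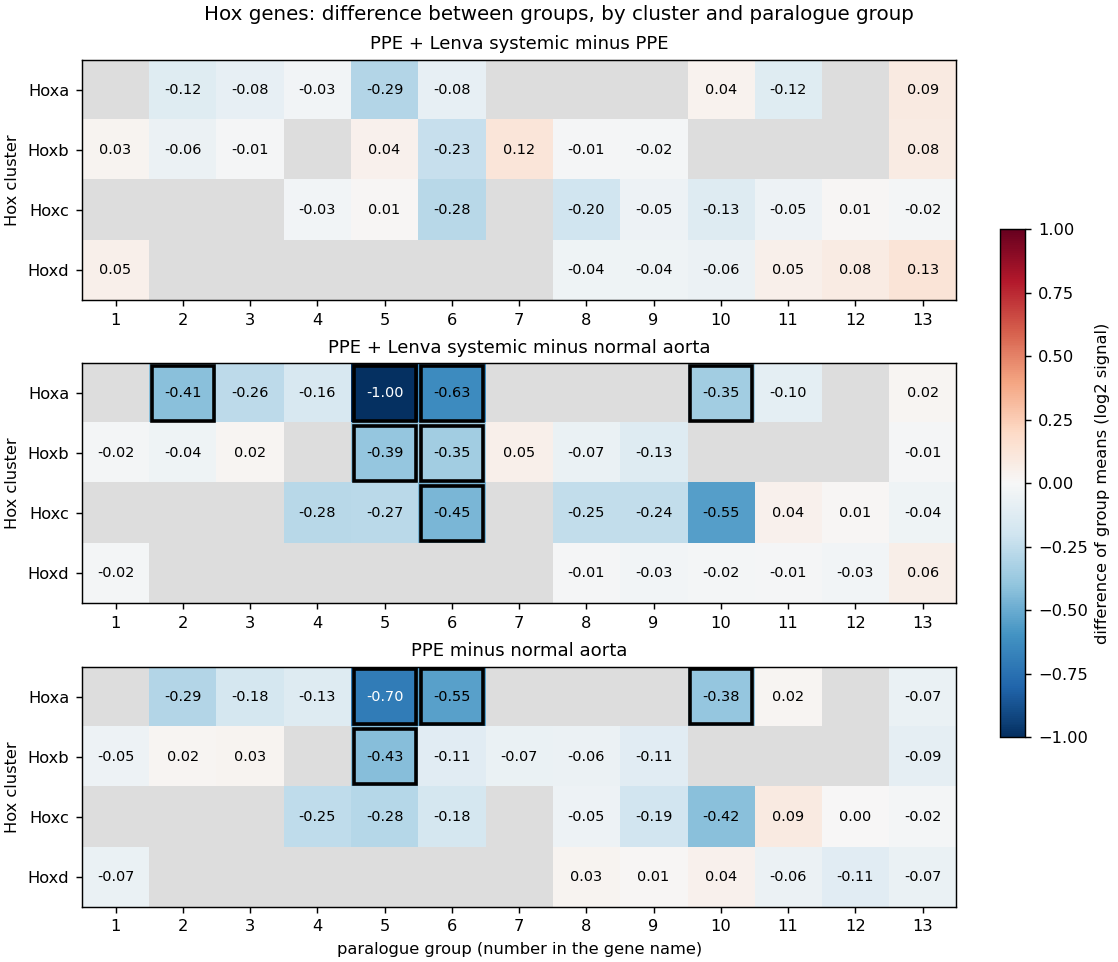
Difference of group means in log2 signal (colour and printed value) for each Hox gene, placed by cluster (rows) and paralogue group (columns), in 3 comparisons; black frames mark genes with an adjusted p under 0.05 and grey fields have no value shown. The framed genes are all lower and lie in paralogue groups 2, 5, 6 and 10 of the A, B and C clusters, with Hoxa5 at -0.70 in PPE minus normal aorta and -0.995 in PPE + Lenva systemic minus normal aorta.

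Hoxa5, which in the mouse patterns the neck and upper thorax and is needed for lung development, fell the most. Its signal had a lowest, median and highest value of 6.84, 7.22 and 7.48 in the 6 PPE arrays, against 7.66, 8.07, 8.12, 8.07 and 7.62 in the 5 normal arrays. All PPE arrays lay below all normal arrays. The difference was -0.70 ± 0.15 (SE; adjusted p = 0.0125), with a two-sided exact permutation p of 0.00216, the smallest that 6 arrays against 5 can give.

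Hoxa6, its neighbour in the cluster with a role at nearby thoracic levels, ran from 6.32 over a median of 6.805 to 7.02 in PPE aorta, against 7.71, 7.07, 7.18, 7.10 and 7.34 in normal aorta. The groups did not overlap, although the highest PPE array came close to the lowest normal array. The difference was -0.55 ± 0.14 (adjusted p = 0.0386; exact permutation p = 0.00433). It passed in 10 of 18 fits that each left out 1 array, failing without normal replicates 1, 3 or 5 or PPE replicates 1, 2, 3, 4 or 6 (adjusted p up to 0.0889), and its adjusted p was 0.141 with the authors' averages in place of plain means (difference -0.38), 0.0577 with no moderation and 0.0681 with the variance of the groups compared alone.

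Hoxb5, a paralogue of Hoxa5 that in the mouse helps to place the shoulder girdle, ran from 5.47 over 5.72 to 5.95 in PPE aorta, against 6.26, 6.10, 6.01, 6.08 and 6.32 in normal aorta. These groups did not overlap either. The difference was -0.43 ± 0.09 (adjusted p = 0.0154; exact permutation p = 0.00433).

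Hoxa10, which sets lumbar identity in the skeleton and patterns the uterus, ran from 4.39 over 4.50 to 4.62 in PPE aorta, against 4.81, 5.22, 4.81, 4.72 and 4.88 in normal aorta. The groups did not overlap, and the difference was -0.38 ± 0.10 (adjusted p = 0.043; exact permutation p = 0.00216). This call was the least stable of the 4: it passed only without normal replicate 4 or treated replicates 2, 5 or 6 among the 18 fits with 1 array left out (adjusted p up to 0.109), and its adjusted p was 0.0634 with array medians set equal, 0.0978 after quantile normalization, 0.103 with the authors' averages and 0.0599 with no moderation. Among the 11121 clusters with per-array values, 13.3% had all PPE arrays below all normal arrays and 6.68% had them above.

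**Figure D2:**
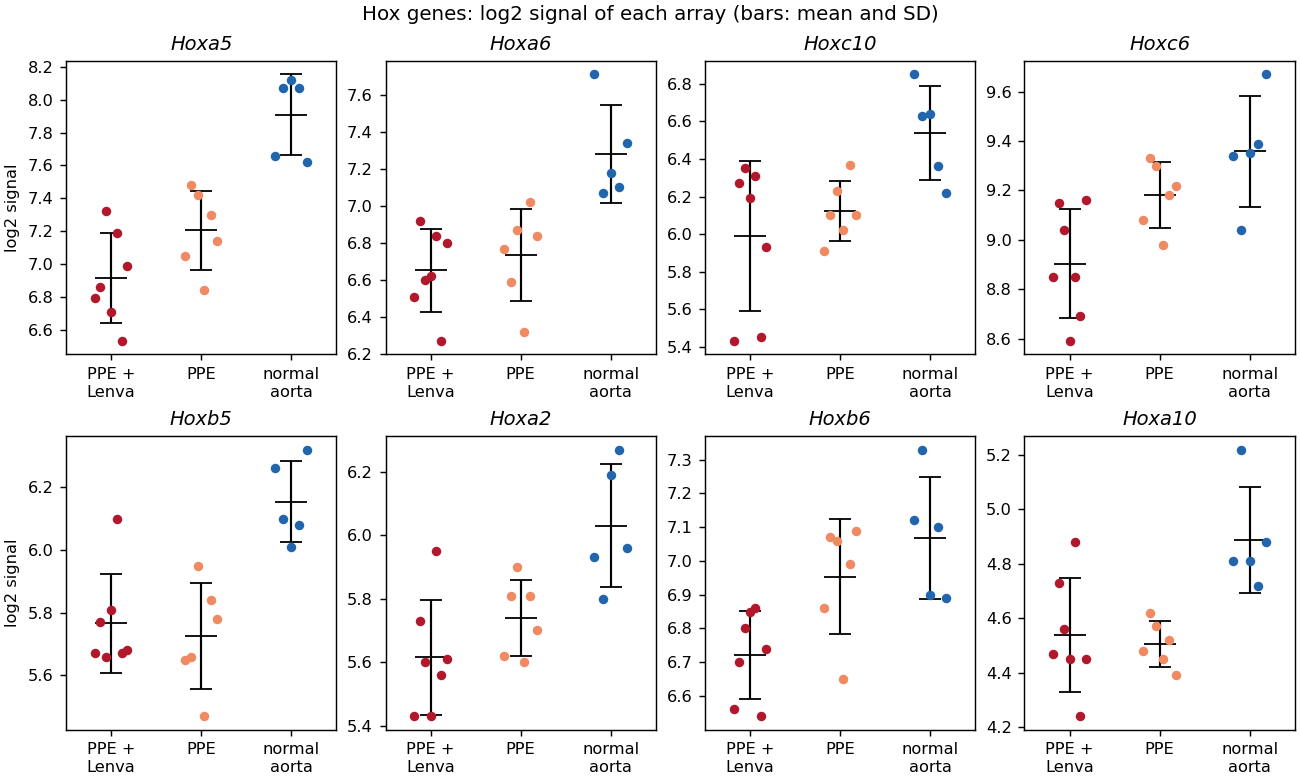
Log2 signal (vertical axis, own scale for each gene) of each array for 8 Hox genes, with PPE + Lenva systemic at left, PPE in the middle and normal aorta at right; horizontal bars give the mean and whiskers the SD. In Hoxa5 and Hoxa6 all 7 treated and all 6 PPE arrays lie below all 5 normal arrays, whereas in Hoxc10 and Hoxa2 both groups overlap normal aorta.

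Hoxc10, a gene of the lumbar level and the hind limb, had a difference of a size with those that passed, but with a wider spread. It ran from 5.91 over 6.10 to 6.37 in PPE aorta, against 6.85, 6.63, 6.64, 6.36 and 6.22 in normal aorta. The highest PPE array lay above the lowest 2 normal arrays, and the difference of -0.42 ± 0.17 did not pass (adjusted p = 0.187; exact permutation p = 0.0152). Hoxa2, the hindbrain and second pharyngeal arch gene, differed by -0.29 ± 0.10 (adjusted p = 0.105; exact permutation p = 0.0152), with 3 of 6 PPE arrays below the lowest normal array. Hoxc5 and Hoxc4, genes of the lower neck and upper thorax, differed by -0.28 and -0.25 (adjusted p = 0.191 and 0.187), although with the authors' averages Hoxc5 was -0.44 and passed (adjusted p = 0.0392), and Hoxb9, a gene of the rib-bearing thorax, by -0.11 (adjusted p = 0.23).

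The other members with per-array values were Hoxc9 (-0.19; adjusted p = 0.308), Hoxa3 (-0.18; 0.302), Hoxc6 (-0.18; 0.46) and Hoxb6 (-0.11; 0.592). The annotated span of Hoxa3 on the array covers those of Hoxa4, Hoxa5 and Hoxa6 on the same strand, so signal of these genes could count toward it. Differences above 0 reached 0.09 for Hoxc11 (95% interval -0.07 to 0.25) and 0.04 for Hoxd10 (-0.12 to 0.20), and none passed. Hoxc8, a thoracic gene, had the widest interval of all members, -0.59 to 0.49 around -0.05, with SDs of 0.49 in PPE and 0.32 in normal aorta.

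By cluster, 3 of 9 HoxA, 1 of 9 HoxB, 0 of 9 HoxC and 0 of 7 HoxD genes fell. The median difference was -0.18 for HoxA, -0.07 for HoxB, -0.18 for HoxC and -0.06 for HoxD. By position, 0 of 9 genes of paralogue groups 1 to 4, 3 of 10 of groups 5 to 8 and 1 of 15 of groups 9 to 13 fell, with medians of -0.07, -0.15 and -0.07. Genes of 1 cluster share control regions and are not independent of each other, and whether clusters or positions differ was not tested. At unadjusted p under 0.05, the HoxC genes numbered 3 (Hoxc4, Hoxc5 and Hoxc10) and the HoxD genes 0.

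PPE + Lenva systemic vs. normal aorta set the treated aneurysm against the same normal arrays, so the comparison shares its normal group with the previous one. Of the 34 members 7 fell and none rose, or 20.6% lower, where 6.06% of all clusters passed in either direction, 3.34% lower and 2.72% higher. The count was 4 without normal aorta replicate 3 and 4 without treated replicate 6. Of the 18 members above the median signal 38.9% were lower, against 5.69% of such clusters. At unadjusted p under 0.05 there were 14 members, all lower (41.2%, against 11.3% of all clusters lower and 8.61% higher), and 28 members had a difference below 0 (82.4%, against 53.3%).

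Hoxa5 again fell the most, with 6.53, 6.86 and 7.32 as the lowest, median and highest signal in the 7 treated arrays, against 7.62 to 8.12 in normal aorta. The highest treated array, at 7.32, lay below the lowest normal array, at 7.62. The difference was -0.995 ± 0.14 (adjusted p = 0.000827), and the exact permutation p of 0.00126 is the smallest that 7 arrays against 5 can give. It passed in all 18 fits with 1 array left out and under all 9 other settings tried.

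Hoxa6 ran from 6.27 over 6.62 to 6.92 in treated aorta, against 7.07 to 7.71 in normal aorta, with no overlap. Its difference was -0.63 ± 0.14 (adjusted p = 0.0127; exact permutation p = 0.00126). Hoxb5 ran from 5.66 over 5.68 to 6.10 in treated aorta, against 6.01 to 6.32 in normal aorta, and 1 treated array (replicate 5, at 6.10) lay within the normal range. Its difference was -0.39 ± 0.09 (adjusted p = 0.0179; exact permutation p = 0.00758).

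Hoxc6, a thoracic gene, ran from 8.59 over 8.85 to 9.16 in treated aorta, against 9.34, 9.04, 9.35, 9.39 and 9.67 in normal aorta. The groups overlapped through normal replicate 2, at 9.04, and 4 of the 5 normal arrays lay above all treated arrays. The difference was -0.45 ± 0.11 (adjusted p = 0.0233; exact permutation p = 0.0101), with an adjusted p of up to 0.0576 without normal replicates 3, 4 or 5 or treated replicate 6 and of 0.0615 with the variance of the groups compared alone. Hoxb6, expressed in the lateral plate mesoderm of the mouse embryo, ran from 6.54 over 6.74 to 6.86 in treated aorta, against 7.12, 7.33, 6.90, 7.10 and 6.89 in normal aorta, with no overlap. Its difference was -0.35 ± 0.09 (adjusted p = 0.0329; exact permutation p = 0.00126), with an adjusted p of up to 0.0959 without normal replicates 1, 2 or 4 or treated replicates 1 or 6, of 0.0523 with array medians set equal and of 0.0555 with a variance trend.

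Hoxa2 ran from 5.43 over 5.60 to 5.95 in treated aorta, against 5.93, 5.80, 6.19, 6.27 and 5.96 in normal aorta. Of the 7 treated arrays 6 lay below all normal arrays, and the difference was -0.41 ± 0.09 (adjusted p = 0.017; exact permutation p = 0.00505), or an adjusted p of 0.0581 without normal replicate 3. Hoxa10 ran from 4.24 over 4.47 to 4.88 in treated aorta, against 4.72 to 5.22 in normal aorta, with 5 of 7 treated arrays below all normal arrays. The difference was -0.35 ± 0.10 (adjusted p = 0.0446; exact permutation p = 0.0152), and it passed only without normal replicate 4 or treated replicates 2 or 5 among the 18 fits with 1 array left out (adjusted p up to 0.123), and under 6 of the 9 other settings its adjusted p was between 0.0559 and 0.109. All treated arrays lay below all normal arrays for Hoxa5, Hoxa6 and Hoxb6, as for 9.51% of the clusters with per-array values (8.63% had all treated arrays above).

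Hoxc10 did not pass here either, at -0.55 ± 0.17 (adjusted p = 0.0618; exact permutation p = 0.0265), but had an adjusted p of 0.0447, 0.0411 and 0.0499 without normal replicate 5, treated replicate 3 and treated replicate 5, and of 0.0347 with dim clusters left out. Its treated arrays split, with 5.43, 5.45 and 5.93 in replicates 1, 6 and 7 and 6.19 to 6.35 in the other 4, against 6.22 to 6.85 in normal aorta. Hoxa3 (-0.26; adjusted p = 0.0887, and 0.0464 without normal replicate 5), Hoxc4 (-0.28; 0.109, and 0.0381 without treated replicate 5), Hoxc9 (-0.24; 0.138), Hoxc5 (-0.27; 0.182), Hoxb9 (-0.13; 0.126) and Hoxa4 (-0.16; 0.125) lay below normal without passing. The largest differences above 0 were 0.06 for Hoxd13 (95% interval -0.10 to 0.22), which patterns the digits and the tail end of the gut, 0.05 for Hoxb7 (-0.10 to 0.20) and 0.04 for Hoxc11 (-0.12 to 0.20).

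By cluster, 4 of 9 HoxA, 2 of 9 HoxB, 1 of 9 HoxC and 0 of 7 HoxD genes fell, with median differences of -0.26, -0.04, -0.25 and -0.02. By position, 1 of 9 genes of groups 1 to 4, 5 of 10 of groups 5 to 8 and 1 of 15 of groups 9 to 13 fell, with medians of -0.05, -0.31 and -0.03. The 7 HoxD genes lay between -0.03 and 0.06, and only Hoxd8 of them had a signal above the median of all clusters. Its group averages were 5.03 in treated, 5.07 in PPE and 5.04 in normal aorta, with a 95% interval of -0.14 to 0.12 for treated minus normal and -0.10 to 0.16 for PPE minus normal.

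**Figure D3:**
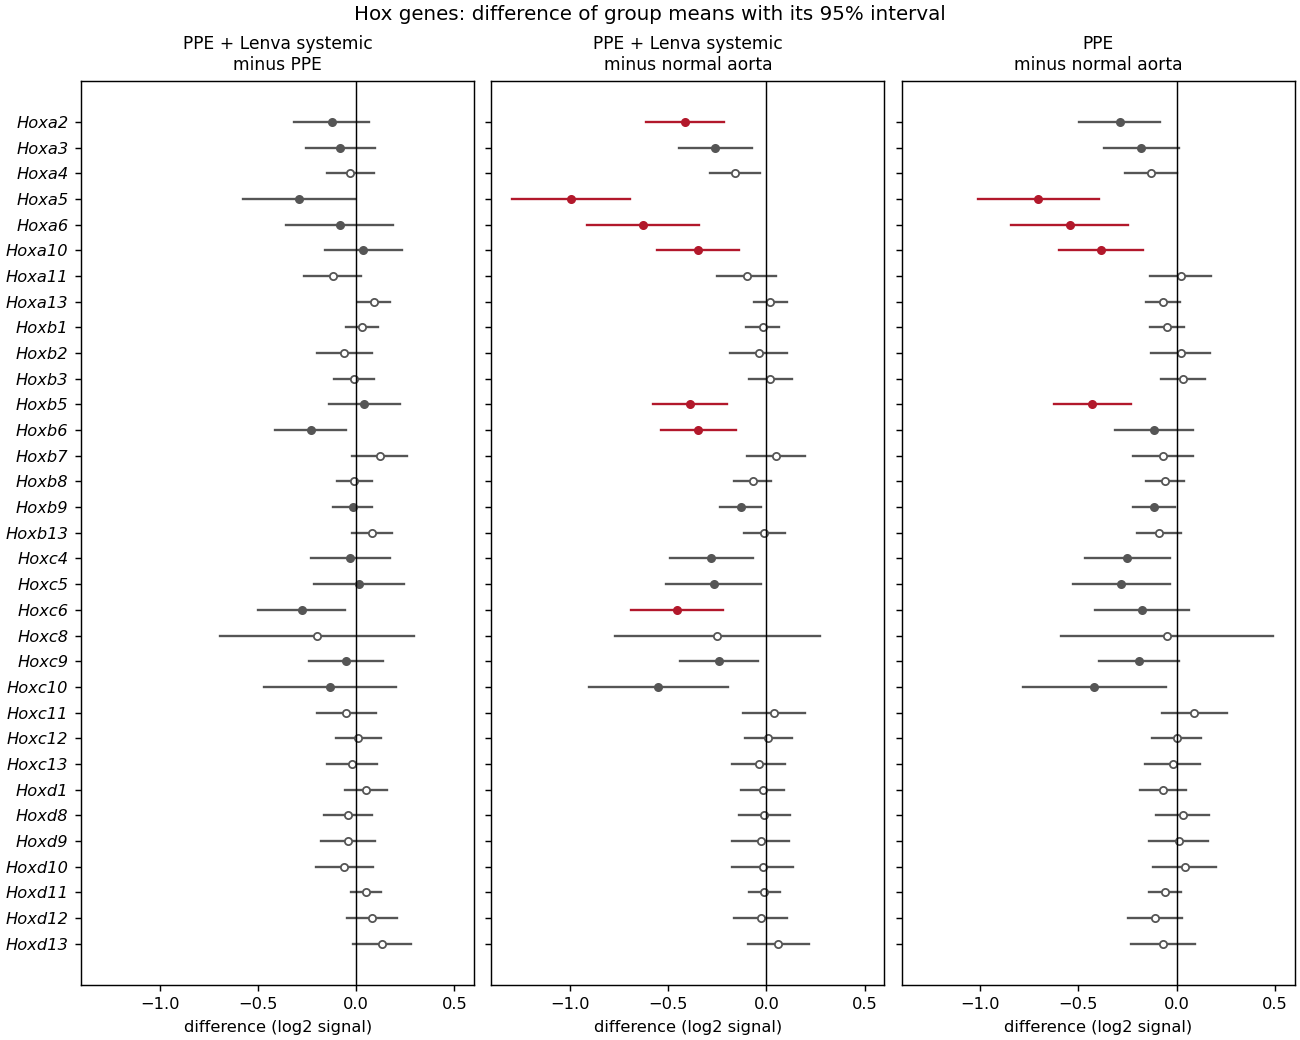
Difference of group means (horizontal axis, log2 signal) with its 95% interval for 33 of the Hox genes in 3 comparisons; red marks an adjusted p under 0.05, filled points are genes with per-array values and open points genes with group averages only. Red points appear in the comparisons with normal aorta, 7 for PPE + Lenva systemic and 4 for PPE, and none in PPE + Lenva systemic minus PPE, where Hoxa5 at -0.29 is the lowest and Hoxd13 at 0.13 the highest.

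PPE + Lenva systemic vs. PPE asked whether the drug moved Hox expression in the aneurysm. No Hox gene passed, and neither did any of the 65956 clusters (0% called; smallest adjusted p 0.187), whereas 3943 clusters had an unadjusted p under 0.05 by the same limma test. The median difference over the 34 members was -0.03, beside 0.01 over all clusters. At unadjusted p under 0.05 there were 4 members lower (11.8%, against 2.45% of all clusters) and 1 higher (against 3.53%), and 22 members had a difference below 0 (64.7%, against 43.6%).

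Hoxa5 differed by -0.29 (95% interval -0.58 to -0.01; unadjusted p = 0.0449, adjusted p = 0.827), with a lowest, median and highest signal of 6.53, 6.86 and 7.32 in treated arrays, against 6.84, 7.22 and 7.48 in PPE arrays. Of the 7 treated arrays 3 lay below all PPE arrays, and the exact permutation p was 0.0717. Hoxc6 differed by -0.28 (-0.50 to -0.06; unadjusted p = 0.0172, adjusted p = 0.754), with 8.59, 8.85 and 9.16 in treated arrays, against 8.98, 9.20 and 9.33 in PPE arrays. Its exact permutation p was 0.0233. Hoxb6 differed by -0.23 (-0.41 to -0.05; unadjusted p = 0.0156, adjusted p = 0.753), with 6.54, 6.74 and 6.86 in treated arrays, against 6.65, 7.03 and 7.09 in PPE arrays, and an exact permutation p of 0.0233. In each of these 3 genes the groups overlapped, as in all 13 members with per-array values; 0.27% of such clusters had all treated arrays below all PPE arrays and 0.387% above.

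Hoxa13, a gene of the distal limb and hindgut with group averages only, was the member higher at an unadjusted p under 0.05, at 0.09 (0.01 to 0.17). The largest differences above 0 were Hoxd13 at 0.13 (-0.02 to 0.28), Hoxb7 at 0.12 (-0.02 to 0.26) and Hoxa13. Of the genes that had fallen in PPE vs. normal aorta, Hoxa6 differed by -0.08 (-0.36 to 0.19), Hoxb5 by 0.04 (-0.14 to 0.22) and Hoxa10 by 0.04 (-0.16 to 0.23). An interval that includes 0 does not show that the groups are alike: for Hoxa6 it leaves room for a change of 0.36 downward.

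Over the 13 members with per-array values, the median difference of an array from the normal means lay between -0.53 and -0.17 in treated, between -0.43 and -0.20 in PPE and between -0.12 and 0.10 in normal aorta. This is a description only, since the 13 were selected for differing. The arrays of a group were not alike. Treated replicate 5 had the highest signal of its group in 7 of the 13 genes, with the highest smooth muscle sum (18.29) and endothelial sum (12.69) of the treated arrays, and treated replicate 6 had the lowest signal in 7. Treated replicates 1 and 4 were lowest in 2 and 3 of the 13 genes. In treated replicates 6, 1 and 4 the median difference from the normal means was -0.53, -0.48 and -0.34. Their smooth muscle sums were 17.66, 17.03 and 17.59, their endothelial sums 11.50, 10.57 and 11.54, and their macrophage sums 19.70, 19.64 and 19.90. In treated replicates 2, 3, 5 and 7 the median difference was -0.27, -0.32, -0.17 and -0.33. The smooth muscle sums of these were 18.27, 17.96, 18.29 and 17.81, and the endothelial sums 11.67, 12.10, 12.69 and 11.91. Their macrophage sums were 19.15, 18.91, 19.39 and 19.36. PPE replicate 4 had the lowest signal of its group in 9 of the 13 genes, with the highest macrophage sum (19.73) of the PPE arrays. In PPE replicates 1, 2, 3, 4, 5 and 6 the median difference from the normal means was -0.36, -0.24, -0.20, -0.43, -0.22 and -0.34. Their macrophage sums were 19.44, 19.49, 19.58, 19.73, 18.83 and 19.25. Whether these sums and the Hox signal go together over arrays was not tested. In normal aorta no array was highest or lowest in more than 5 of the 13.

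Of the 8 TALE cofactors examined, 1 fell in PPE vs. normal aorta, 2 fell in PPE + Lenva systemic vs. normal aorta, and none passed between treated and PPE aorta, where 2.62% and 3.34% of all clusters were lower than in normal aorta and none passed between the aneurysm groups. Meis1, which binds DNA with Hox proteins and is known for its roles in heart and blood development, ran from 7.00 over 7.57 to 8.06 in treated aorta and from 7.25 over 7.625 to 7.84 in PPE aorta, against 9.20, 8.41, 9.0, 8.36 and 8.13 in normal aorta. All aneurysm arrays lay below all normal arrays, as in 13.3% of the clusters with per-array values for PPE and 9.51% for treated aorta. The difference was -1.05 ± 0.20 for PPE vs. normal aorta (adjusted p = 0.00645; exact permutation p = 0.00216) and -1.06 ± 0.19 for treated vs. normal aorta (adjusted p = 0.0045; exact permutation p = 0.00126). Treated minus PPE aorta was -0.01 (95% interval -0.39 to 0.38).

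Meis2, which also serves limb and heart development, fell by 0.39 in treated aorta (adjusted p = 0.0286, and up to 0.0775 without normal replicates 1, 2 or 3 or treated replicates 1, 4 or 6) and differed by -0.34 in PPE aorta (adjusted p = 0.074, and 0.0423 without PPE replicate 3). The difference in PPE aorta passed too after quantile normalization (0.0304), with the authors' averages (0.0472) and with dim clusters left out (0.0433), and the call in treated aorta was lost with the variance of the groups compared alone (0.0586). The other 6 cofactors (Pbx2, Pbx3, Pbx4, Meis3, Pknox1 and Pknox2) did not pass, with Pknox1 at 0.17 in PPE vs. normal aorta (adjusted p = 0.0725).

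**Figure D4:**
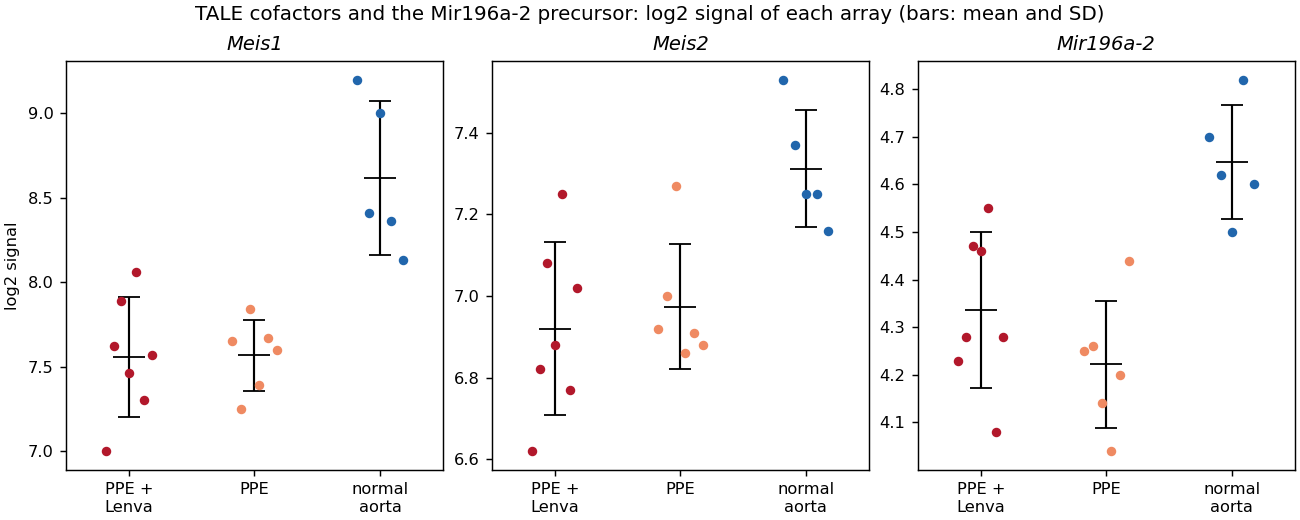
Log2 signal (vertical axis, own scale for each gene) of each array for the TALE cofactors Meis1 and Meis2 and for the precursor of Mir196a-2, with PPE + Lenva systemic at left, PPE in the middle and normal aorta at right; bars give the mean and whiskers the SD. All treated and PPE arrays of Meis1 lie below the lowest normal array, at 8.13.

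The Hox clusters also hold non-coding RNAs. Of 13 measured, 1 passed: the precursor of Mir196a-2, a microRNA encoded between Hoxc10 and Hoxc9 (array cluster chr15:102973341-102973450, forward strand, mm10), whose family is known in the mouse to cut Hoxb8 mRNA. Its signal ran from 4.08 over 4.28 to 4.55 in treated aorta and from 4.04 over 4.225 to 4.44 in PPE aorta, against 4.70, 4.62, 4.50, 4.82 and 4.60 in normal aorta. All PPE arrays and 6 of 7 treated arrays lay below all normal arrays. Of the clusters with per-array values, 13.3% had all PPE arrays below all normal arrays. The 1 of 13 that passed is 7.69% in each comparison with normal aorta, where 2.62% of all clusters were lower in PPE and 3.34% in treated aorta. It fell by 0.43 in PPE aorta (adjusted p = 0.0107, and 0.0819 with the replicate number as a block). In treated aorta it fell by 0.31 (adjusted p = 0.0364, and up to 0.0866 without normal replicates 1, 2 or 4 or treated replicates 1, 2, 6 or 7). The adjusted p there was 0.057 after quantile normalization, 0.0673 with the variance of the groups compared alone and 0.16 with the replicate block. Treated minus PPE aorta was 0.11 (95% interval -0.05 to 0.28). The mature sequences from RefSeq (GRCm38.p6) are shown for this locus and for Mir196b of the HoxA cluster, which shares the seed, with bases 2 to 8 in capitals.
mmu-miR-196a-5p: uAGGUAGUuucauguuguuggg
mmu-miR-196a-2-3p: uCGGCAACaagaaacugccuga
mmu-miR-196b-5p: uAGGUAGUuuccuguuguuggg
The array reads the precursor and not the mature microRNA. Mir196a-1 in the HoxB cluster gives the same mature miR-196a-5p, and its precursor differed by 0.03 in PPE vs. normal aorta (adjusted p = 0.935). Mir196b shares its array cluster with Hoxa9 and has no value of its own here. Hoxb8 differed by -0.07 in treated (adjusted p = 0.442) and -0.06 in PPE aorta (adjusted p = 0.555). Hotair, the long non-coding RNA of the HoxC cluster, differed by -0.12 in PPE vs. normal aorta (adjusted p = 0.509), and Hottip, at the tail end of HoxA, by -0.10 (adjusted p = 0.522).

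Of 10 genes that flank the Hox clusters none fell. Skap2, next to HoxA and an adaptor protein of myeloid cells, rose by 1.15 ± 0.25 in treated vs. normal aorta (adjusted p = 0.0126) and differed by 0.89 ± 0.26 in PPE vs. normal aorta (adjusted p = 0.0625; 0.019 without PPE replicate 5 and 0.0478 without treated replicate 1), which passed with array medians set equal (0.0436), with the authors' averages (0.0373) and with dim clusters left out (0.0359). Skap1, next to HoxB and an adaptor protein of T cells, rose by 0.39 ± 0.10 in treated aorta (adjusted p = 0.0288, and up to 0.0854 without normal replicates 1, 2 or 3 or treated replicates 1, 4, 5 or 6) and differed by 0.30 ± 0.10 in PPE aorta (adjusted p = 0.107). The difference of Skap1 in PPE aorta passed after quantile normalization (0.0334) and with the authors' averages (0.0335), and its call in treated aorta was lost with the variance of the groups compared alone (0.0554). In treated aorta these neighbours were higher where Hoxa5 and Hoxb5 were lower, and the macrophage and lymphocyte markers given above were higher too; their part was not tested. The remaining 8, Evx1 and Evx2 among them, did not pass in any comparison. Of 20 chromatin regulators of Hox genes, such as the Polycomb members Ezh2 and Bmi1 and the activator Kmt2a, and of 13 axial patterning signals, such as the Cdx factors and Gdf11, none passed in any comparison. In PPE vs. normal aorta, 2 and 0 of the 20 regulators and 1 and 1 of the 13 signals had an unadjusted p under 0.05 with a higher and a lower value.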

How the data were processed

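RNA of 18 mouse aortas was hybridised to Mouse Transcriptome Arrays, 1 array per sample (7 PPE + Lenva systemic, 6 PPE, 5 normal aorta); nothing in the labels states whether samples were processed in batches. The authors deposited log2 signals from their RMA type normalization in the Transcriptome Analysis Console 4.0.1.36 (annotation mm10): 3 comparison tables with group averages and SDs of 65956 clusters, and a table of single arrays with 11121 clusters. The comparison tables also hold fold changes and p-values of the authors' own tests, which were not used. The array number limits the precision of every value, and RNA quality per sample was not used here.

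Group means were taken from single arrays where these were deposited and otherwise from the deposited averages, which are not plain means of the arrays (median gap 0.0233). The variance was pooled from the deposited SDs over 15 degrees of freedom, moderated with limma 3.58.1 in R 4.3.3 (prior degrees of freedom 1.72), with Benjamini-Hochberg adjustment over 65956 clusters. The procedure was tested on simulated data. Where single arrays were deposited, exact two-sided permutation tests of the difference in means were added, unadjusted. The clusters with single arrays had been selected for differing, so these p-values are no independent evidence. Sequences and motifs were read with Python 3.11.15 from RefSeq tables.

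Members and lists were chosen with earlier results of these data known. Named with values were the Hox genes with single arrays or an adjusted p under 0.05, the 3 largest differences each way, and called genes of the other lists; Hoxa4, Hoxb8, Hoxc8, Hoxd8, Pknox1, Mir196a-1, Hotair, Hottip and the genes named only as examples were added after their values were seen. Some results on single genes are not reported here. Alternatives were: array medians set equal, quantile normalization, the deposited averages throughout, dim clusters left out, clusters with 1 symbol only, no moderation, a variance trend, the variance of the groups compared alone, a replicate block, and each array left out.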

Additional observations from a re-analysis of the deposited data

Results flagged for a closer look

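Among the 39 groups of arrays examined for the 13 Hox genes with single-array values, 3 held an array far from the others of its group, where chance gives about 1 in 20. Hoxb5 in PPE + Lenva systemic replicate 5 had a signal of 6.10, with the next array at 5.81 (gap over range 0.659). Hoxb9 in PPE replicate 4 had 3.84, with the next at 3.99 (0.789). Hoxc5 in normal aorta replicate 2 had 4.16, with the next at 4.56 (0.727).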

How the results depend on the processing

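The count of Hox genes lower in PPE vs. normal aorta (4) ran between 2 and 4 with single arrays left out, and was 2 with no moderation of the variance and 3 to 4 under the other settings. The count in PPE + Lenva systemic vs. normal aorta (7) ran between 4 and 9 with arrays left out, and between 5 and 8 under the other settings except the replicate block. No Hox gene passed in PPE + Lenva systemic vs. PPE under any alternative. Nothing in the labels pairs the arrays by replicate number. Of 16 same-numbered pairs 6 correlated above 0.1 (range -0.575 to 0.492), and whether such arrays share a batch cannot be told. With the replicate number as a block the counts were 3 and 1 against normal aorta, and Hoxa5 alone still passed in the treated comparison. Hoxa6 then had an adjusted p of 0.104 in PPE vs. normal aorta. In treated vs. normal aorta the adjusted p was 0.106 for Meis2 and 0.0759 for Skap1. Differences between treated and PPE aorta near 0, none of which passed, changed sign: with the deposited averages Hoxa10 was -0.03, Hoxb5 -0.06 and Hoxc10 0.10; Hoxc5 was -0.0187 after quantile normalization and -0.0317 with the replicate block. With arrays left out, Hoxa10 ran between -0.0217 and 0.085, Hoxb5 between -0.015 and 0.0857, Hoxb9 between -0.0451 and 0.005, Hoxc4 between -0.0883 and 0.025, Hoxc5 between -0.0317 and 0.0749, Meis1 between -0.0933 and 0.0833, and Meis2 between -0.108 and 0.006. The cause of these changes was not tested. The setting without dim clusters gives no value for Hoxb9, and the choice among several rows of a gene did not arise. For the 16 members at or below the median signal, low signal limits what could be measured.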
